A study of Mus musculus with 8 samples.

Results

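The 10 genes described here were 9 members of the Bcl2 family, *Bcl2*, *Bcl2l1*, *Mcl1*, *Bax*, *Bak1*, *Bcl2l11*, *Bbc3*, *Pmaip1* and *Bid*, together with *Bnip3*. They were taken by gene symbol from the 18957 genes listed for each library, and all 10 were listed. RNA-Seq counts were available for 8 libraries of FACS-sorted PDGFRA+ ventricular cells of 3- to 4-week-old mice, 4 from WT and 4 from Pdgfra-Cre:LmnaF/F mice, all of a C57BL/6 (mixed) background. The sorted cells were negative for DAPI and for hematopoietic lineage markers. The Pdgfra-Cre:LmnaF/F mice carried a BAC transgene that expresses Cre recombinase under *Pdgfra* regulatory sequences, and both of their *Lmna* alleles had a floxed exon 2. *Lmna* encodes the nuclear lamins A and C. The WT mice were littermates with wild-type alleles only, so that the presence of Cre and the deletion of *Lmna* cannot be told apart.

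The Bcl2 family sets the threshold for the mitochondrial pathway of apoptosis. BAX and BAK1 form pores in the outer mitochondrial membrane and release cytochrome c, BCL2, BCL-XL (the main product of *Bcl2l1*) and MCL1 hold them in check, and the BH3-only proteins BIM (*Bcl2l11*), PUMA (*Bbc3*), NOXA (*Pmaip1*) and BID relay stress signals to both. BNIP3 is an atypical, hypoxia-inducible relative on the outer mitochondrial membrane that recruits the autophagy machinery to mitochondria, and it has been studied as a death factor in heart muscle. Much of the control of these proteins is exerted after transcription, which transcript counts do not measure.

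Total counts ranged from 2080555 in WT replicate 2 to 12502949 in Pdgfra-Cre:LmnaF/F replicate 4, and values are given as CPM, counts scaled to each library's total after adjustment by TMM factors. Across WT replicates 1 to 4 the CPM of the targeted gene, *Lmna*, was 331, 273, 482 and 373, and across the Pdgfra-Cre:LmnaF/F replicates 126, 97.0, 130 and 90.1, a log2 fold change of -1.72 (SE 0.22, edgeR adjusted p = 0.00492). The summed CPM of 8 fibroblast markers was between 46611 and 53920 in the WT and between 40252 and 55797 in the Pdgfra-Cre:LmnaF/F libraries, with no marker at or under 3 counts in any library. Pdgfra-Cre:LmnaF/F replicate 4 stood apart from the rest. Its 8 cardiac myocyte markers summed to 3139 CPM against 192 to 616 CPM in the other 7 libraries, and its 8 leukocyte markers to 392 CPM against 37.3 to 161 CPM, with 1 marker of each list at or under 3 counts. The 8 endothelial markers summed to 573 to 795 CPM in the WT and 445 to 603 CPM in the Pdgfra-Cre:LmnaF/F libraries, and the lists for pericytes and smooth muscle, Schwann cells and mesothelium to at most 423, 63.6 and 48.6 CPM. The labels do not give the sex of the mice, and 4 Y-linked genes summed to 143 to 272 CPM in WT replicates 1, 2 and 4 and in Pdgfra-Cre:LmnaF/F replicate 4, but to at most 1.95 CPM in the other 4 libraries. The 21 immediate-early and dissociation genes also differed by genotype, at 3711 to 7050 CPM in the WT and 9612 to 14704 CPM in the Pdgfra-Cre:LmnaF/F libraries. In bulk RNA, fewer cells of a type and less RNA per cell cannot be told apart.

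To place the members within the fibroblast transcriptome, their levels were first set side by side per kilobase of exon, the only scale on which genes can be compared with each other. In the WT libraries *Mcl1* was the most abundant at 89.3 ± 13.8 CPM per kb (SD, n = 4, as for all means below), at the 97.0th percentile of 12985 tested genes of known length. *Bak1* (31.4 ± 6.16 CPM per kb) and *Bax* (31.1 ± 3.10 CPM per kb) came next, and their ranges overlapped each other but not that of *Mcl1*. *Bcl2l1* (16.0 ± 12.0 CPM per kb) overlapped both effectors as well as *Bbc3* (10.6 ± 2.74 CPM per kb). *Bcl2* (4.65 ± 0.91 CPM per kb) lay wholly below *Bbc3*, near the median of all genes of 5.70 CPM per kb, and did not separate from *Bnip3* (4.26 ± 1.98 CPM per kb). *Bcl2l11* followed at 2.13 ± 0.68 CPM per kb, overlapping *Bnip3* only in part. *Bid* averaged 0.460 CPM per kb and *Pmaip1* 0.0512 CPM per kb. In the Pdgfra-Cre:LmnaF/F libraries *Mcl1* again ranked first (113 to 138 CPM per kb), *Bak1* ranked 4 of 10 at 15.2 ± 5.50 CPM per kb, behind *Bax* (35.9 ± 4.13 CPM per kb) and *Bcl2l1* (22.5 ± 7.49 CPM per kb), and *Bnip3* spread from 2.80 to 25.7 CPM per kb, the highest value in replicate 4.

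The comparison of the genotypes asked whether transcripts of the apoptosis machinery differed in LMNA-deficient fibroblasts. The anti-apoptotic *Bcl2* and *Mcl1* and the BH3-only gene *Bcl2l11* had higher values in every Pdgfra-Cre:LmnaF/F library than in any WT library, and the effector *Bak1* had lower values in every one. *Bnip3* was higher on average but overlapped between genotypes. None of these differences passed the adjusted threshold. Of the 10 members, 9 passed the low-count filter, and 0 of them had an edgeR adjusted p under 0.05, against 0.407% of the 13036 genes tested. DESeq2 called 1 member, *Bak1*, and 2.15% of the 14339 genes it gave an adjusted p, and limma-voom called 0 members and 0.967% of genes. At an unadjusted edgeR p under 0.05 there were 5 members (55.6%), *Bcl2*, *Mcl1*, *Bcl2l11* and *Bnip3* higher and *Bak1* lower, against 11.9% of all genes tested. The 4 members whose groups did not overlap made up 44.4% of those tested, against 8.02% of all genes. The median log2 fold change was 0.54 over the 9 members and 0.02 over all genes, with 7 members higher and 2 lower.

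**Figure D1:**
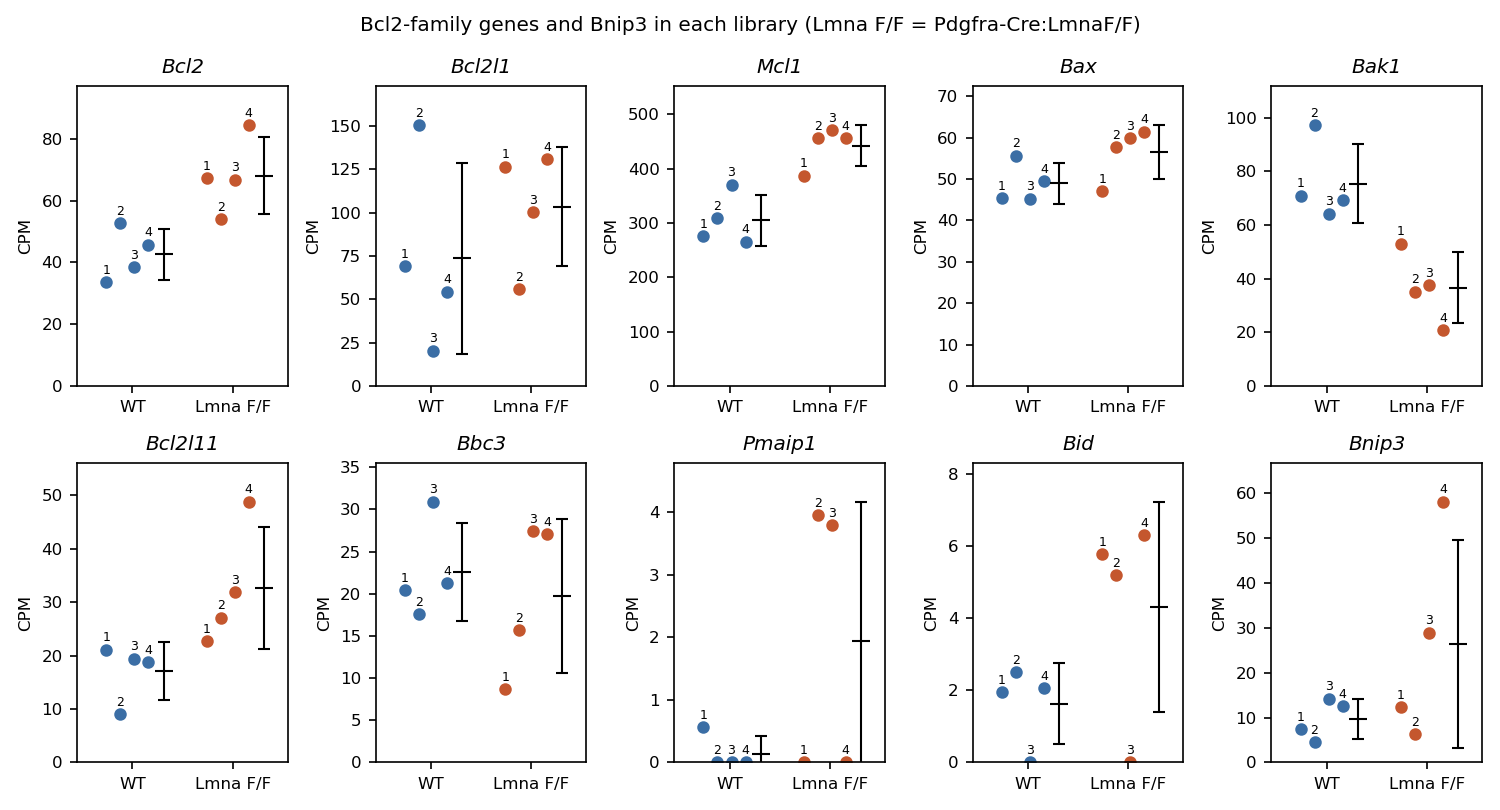
CPM of each of the 10 genes in every library, on linear axes from 0. Points are libraries with their replicate number, horizontal bars with whiskers are the mean ± SD of 4 libraries (whiskers end at 0), blue is WT and orange Pdgfra-Cre:LmnaF/F. *Bcl2*, *Mcl1* and *Bcl2l11* are higher and *Bak1* lower in all 4 Pdgfra-Cre:LmnaF/F libraries, while *Bnip3* reaches 58.1 CPM in replicate 4 only.

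Among the anti-apoptotic genes, *Bcl2* (chromosome 1, 106538178 to 106714274, minus strand), the founding member of the family, had CPM values of 33.7, 52.7, 38.4 and 45.7 across WT replicates 1 to 4 and of 67.3, 54.1, 66.8 and 84.5 across Pdgfra-Cre:LmnaF/F replicates 1 to 4. The groups did not overlap, although Pdgfra-Cre:LmnaF/F replicate 2 lay just above WT replicate 2. The means were 42.6 ± 8.34 and 68.2 ± 12.5 CPM, and the log2 fold change was 0.69 (SE 0.23, 95% interval 0.19 to 1.18, edgeR adjusted p = 0.233). *Mcl1* (chromosome 3, 95658788 to 95663176, plus strand) encodes a short-lived guard whose protein is lost within hours when synthesis stops. It had 276, 308, 370 and 266 CPM in the WT and 387, 456, 472 and 456 CPM in the Pdgfra-Cre:LmnaF/F libraries. Here too every Pdgfra-Cre:LmnaF/F value was above the highest WT value, that of replicate 3. Its log2 fold change was 0.54 (SE 0.19, 95% interval 0.13 to 0.94, edgeR adjusted p = 0.259), with means of 305 ± 47.1 and 443 ± 37.6 CPM.

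*Bcl2l1* (chromosome 2, 152780668 to 152831728, minus strand), which gives rise to long anti-apoptotic and short pro-apoptotic products that counts per gene do not separate, was the least uniform of the guards. Its CPM was 69.1, 150, 20.2 and 54.4 in the WT and 126, 56.0, 100 and 131 in the Pdgfra-Cre:LmnaF/F libraries. WT replicate 2, the library with the fewest counts, had the highest value and WT replicate 3 the lowest, so the groups overlapped widely. The log2 fold change was 0.52 (SE 0.44, 95% interval -0.42 to 1.45, edgeR adjusted p = 0.722), and it was 1.10 without WT replicate 2 and 0.20 without WT replicate 3. With a term for Y-linked expression in the model, it was 1.35 (SE 0.49, edgeR adjusted p = 0.226).

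**Figure D2:**
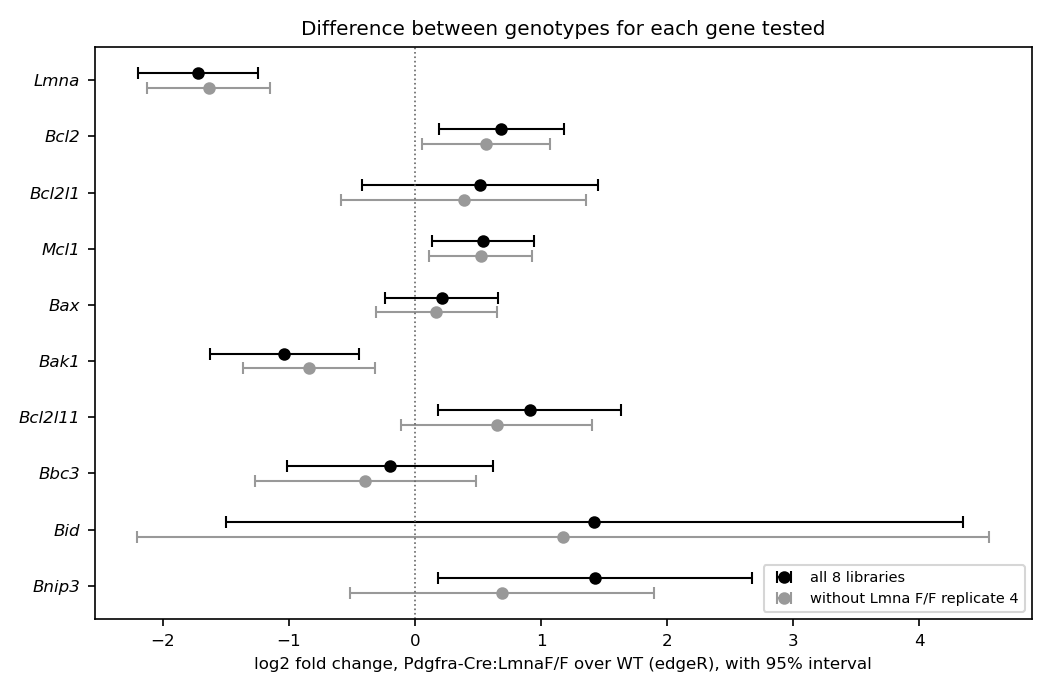
Log2 fold change (x axis) of Pdgfra-Cre:LmnaF/F over WT for *Lmna* and the 9 members tested, with 95% intervals from edgeR, from all 8 libraries (black) and without Pdgfra-Cre:LmnaF/F replicate 4 (grey). The intervals of *Bcl2*, *Mcl1* and *Bak1* stay clear of 0 in both fits, and those of *Bcl2l11* and *Bnip3* reach 0 once that library is left out.

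The pore-forming effectors differed from each other. *Bak1* (chromosome 17, 27019810 to 27029009, minus strand), the effector that resides on mitochondria, had 71.0, 97.3, 64.2 and 69.4 CPM in the WT and 53.1, 35.1, 37.7 and 20.8 CPM in the Pdgfra-Cre:LmnaF/F libraries. All 4 Pdgfra-Cre:LmnaF/F values lay below the lowest WT value, and replicate 4 was the lowest of all. From 75.5 ± 14.8 to 36.7 ± 13.2 CPM, the difference on the log2 scale was -1.03 (SE 0.28, 95% interval -1.63 to -0.44), with the smallest p among the members (edgeR adjusted p = 0.134). DESeq2 and edgeR with no low-count filter each put it past the threshold, with adjusted p of 0.0368 and 0.0272, where the fit with no filter called 1.45% of all genes. Leaving out each library in turn gave log2 fold changes from -1.27 to -0.84, the last without Pdgfra-Cre:LmnaF/F replicate 4. Part of *Ggnbp1* overlaps *Bak1* on the opposite strand, and whether the counting used strand is not given in the sources used here. Antisense genes also overlap *Bcl2* and *Bnip3*.

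*Bax* (chromosome 7, 45461697 to 45466898, minus strand), the mostly cytosolic effector that moves to mitochondria on activation, had 45.4, 55.7, 45.3 and 49.5 CPM in the WT and 47.0, 57.6, 59.9 and 61.4 CPM in the Pdgfra-Cre:LmnaF/F libraries. The groups overlapped, with Pdgfra-Cre:LmnaF/F replicate 1 among the WT values. Among the WT libraries *Bax* was the steadiest member, with an SD of 9.97% of the mean. Its log2 fold change was 0.21 (SE 0.21, 95% interval -0.23 to 0.66, edgeR adjusted p = 0.776). The gene *Gm45808* overlaps *Bax* on the same strand, and how reads shared by both were counted is not given.

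Because both effectors were counted in the same library, their ratio does not depend on the scaling between libraries. Per kb of exon, *Bak1* over *Bax* was 1.02, 1.14, 0.929 and 0.919 in the WT and 0.739, 0.399, 0.411 and 0.222 in the Pdgfra-Cre:LmnaF/F libraries. *Bak1* thus made up 47.9% to 53.4% of the effector transcripts in the WT and 18.2% to 42.5% in the Pdgfra-Cre:LmnaF/F libraries, without overlap. The ratio of *Bax* plus *Bak1* to *Bcl2* plus *Bcl2l1* plus *Mcl1* was between 0.474 and 0.636 in the WT (mean 0.571 ± 0.0689) and between 0.278 and 0.350 in the Pdgfra-Cre:LmnaF/F libraries (mean 0.322 ± 0.0313), again without overlap. *Bax* over *Bcl2*, the ratio most often quoted for apoptosis, was 6.14 to 7.84 in the WT and 4.06 to 6.19 in the Pdgfra-Cre:LmnaF/F libraries and overlapped. The share of *Mcl1* among the guards was 70.1% to 92.6% in the WT and 76.4% to 88.0% in the Pdgfra-Cre:LmnaF/F libraries and overlapped. These ratios combine values already given and were not tested.

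**Figure D3:**
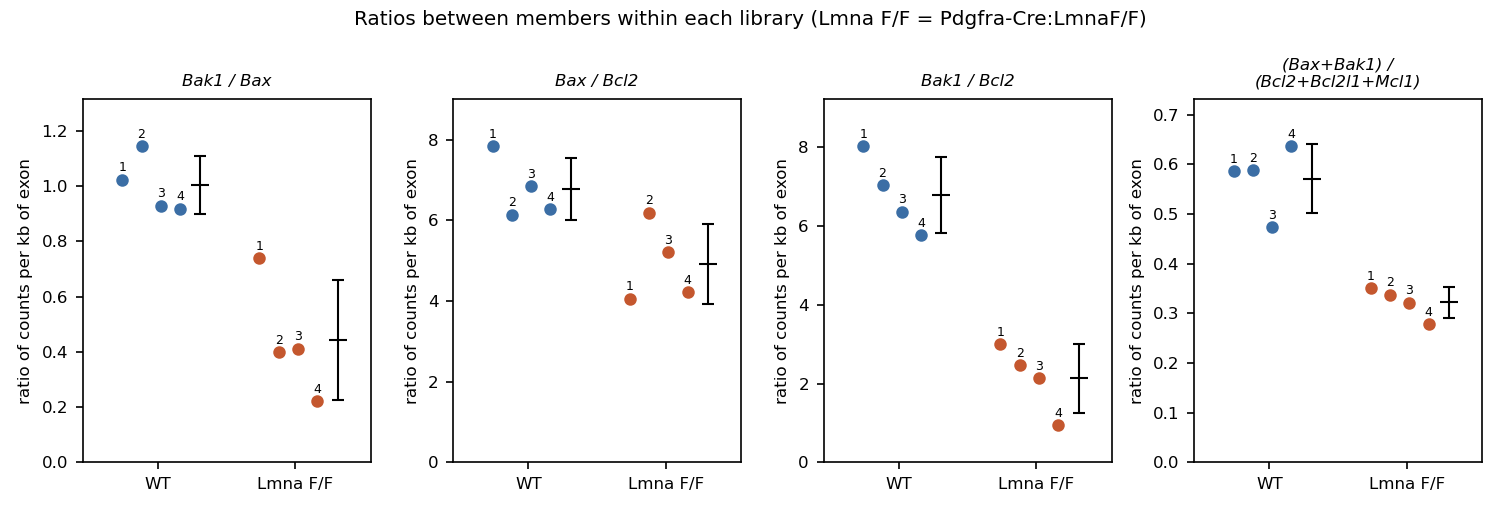
Ratios of counts per kb of exon between members within each library, on linear axes from 0, with mean ± SD of 4 libraries and replicate numbers beside the points. *Bak1* over *Bax*, *Bak1* over *Bcl2* and the ratio of effectors to guards separate the genotypes, and *Bax* over *Bcl2* does not, since WT replicate 2 (6.14) lies below Pdgfra-Cre:LmnaF/F replicate 2 (6.19).

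Of the BH3-only genes, *Bcl2l11* (chromosome 2, 128126038 to 128162547, plus strand) encodes BIM, which binds all of the guards and can activate the effectors directly. Its transcription is controlled by FOXO factors, which act after growth factor withdrawal. To show the regulatory sequence, the bases before its first RefSeq start (GRCm38.p6, chr2:128125788-128126037, plus strand) are printed with the letters TGTTTAC of a FOXO site, found on the other strand as GTAAACA, in capitals.
Bcl2l11 upstream: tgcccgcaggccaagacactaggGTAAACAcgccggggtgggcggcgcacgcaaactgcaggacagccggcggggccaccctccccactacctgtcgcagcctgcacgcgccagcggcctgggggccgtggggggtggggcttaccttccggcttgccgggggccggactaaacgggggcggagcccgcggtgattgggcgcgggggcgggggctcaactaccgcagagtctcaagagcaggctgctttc
The match began at position -227, counted from the start, and 3.65% of 32851 promoter windows of 300 bases held these letters on either strand. A window of *Bbc3* held them too, and the other *Bcl2l11* window did not. A match describes the letters and is not evidence of binding. *Bcl2l11* had 21.1, 9.03, 19.4 and 18.8 CPM in the WT and 22.7, 27.1, 31.9 and 48.8 CPM in the Pdgfra-Cre:LmnaF/F libraries. The groups did not overlap, but the lowest Pdgfra-Cre:LmnaF/F value was close to the highest WT value. The log2 fold change was 0.91 (SE 0.34, 95% interval 0.19 to 1.64, edgeR adjusted p = 0.299). Without Pdgfra-Cre:LmnaF/F replicate 4 it was 0.65 (SE 0.35, edgeR adjusted p = 0.545) and the unadjusted p was no longer under 0.05.

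*Bbc3* (chromosome 7, 16308393 to 16318205, plus strand), which encodes PUMA, a major p53 target, had 20.4, 17.6, 30.9 and 21.3 CPM in the WT and 8.66, 15.7, 27.4 and 27.1 CPM in the Pdgfra-Cre:LmnaF/F libraries. Pdgfra-Cre:LmnaF/F replicates 1 and 2 lay below all WT libraries and the other two within their range. The log2 fold change was -0.20 (SE 0.38, 95% interval -1.02 to 0.62, edgeR adjusted p = 0.900) and 0.044 without Pdgfra-Cre:LmnaF/F replicate 1. *Pmaip1*, which encodes NOXA, a selective partner of MCL1, was nearly absent from the counts, with 6, 0, 0 and 0 counts in the WT and 0, 38, 33 and 0 counts in the Pdgfra-Cre:LmnaF/F libraries. It did not pass the filter, and with no filter its edgeR adjusted p was 0.507. *Bid* (chromosome 6, 120891930 to 120916853, minus strand) links death receptors to mitochondria after cleavage by caspase-8. Its counts were 21, 5, 0 and 20 in the WT and 56, 50, 0 and 76 in the Pdgfra-Cre:LmnaF/F libraries. Replicate 3 of each genotype had none, and the log2 fold change of 1.42 had an SE of 1.37 (edgeR adjusted p = 0.768) and was 0.41 with limma-voom and 3.32 with the Y-linked term. *Bcl2l13* overlaps *Bid* on the opposite strand and had 351 and 359 counts in those 2 libraries.

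*Bnip3* (chromosome 7, 138890836 to 138909519, minus strand) is induced by HIF factors through a site in its promoter. The bases upstream of the annotated gene, within 250 bases of its RefSeq start (GRCm38.p6, chr7:138909520-138909756, minus strand), are shown because they hold the core letters of a HIF site.
Bnip3 upstream: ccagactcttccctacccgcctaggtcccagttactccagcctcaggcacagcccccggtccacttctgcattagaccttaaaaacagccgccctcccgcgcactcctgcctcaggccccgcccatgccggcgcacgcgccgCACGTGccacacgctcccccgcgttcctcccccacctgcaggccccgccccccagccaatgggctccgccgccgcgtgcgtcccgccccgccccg
The capitals mark CACGTG, which holds the core ACGTG on both strands in overlapping matches and begins at position -108. The core was common, in 19.62% of the 32851 windows, and it was also found in windows of *Bax* and *Bbc3* but in none of *Bcl2*, *Bcl2l1*, *Mcl1*, *Bcl2l11*, *Bid* or *Bak1*. The windows of *Bbc3* and *Bak1* lay within the annotated gene, so bases upstream of it were not searched for these members. *Bnip3* had 7.37, 4.51, 14.2 and 12.5 CPM in the WT and 12.3, 6.34, 28.9 and 58.1 CPM in the Pdgfra-Cre:LmnaF/F libraries. Only Pdgfra-Cre:LmnaF/F replicates 3 and 4 exceeded every WT library, while replicates 1 and 2 lay within the WT range. The means were 9.64 ± 4.48 and 26.4 ± 23.2 CPM, and the log2 fold change was 1.43 (SE 0.58, 95% interval 0.18 to 2.67, edgeR adjusted p = 0.350).

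The size of the *Bnip3* difference rested on Pdgfra-Cre:LmnaF/F replicate 4, the library with the highest myocyte and leukocyte markers. Without it the log2 fold change was 0.69 (SE 0.57, 95% interval -0.52 to 1.90, edgeR adjusted p = 0.736). That library also had the highest *Bcl2* and *Bcl2l11* and the lowest *Bak1* of all 8. Without it the log2 fold changes of *Bcl2*, *Mcl1* and *Bak1* were 0.57, 0.52 and -0.84, and these 3 members kept an unadjusted edgeR p under 0.05, against 11.1% of 13447 genes. The part of other cell types in these differences was not tested.

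**Figure D4:**
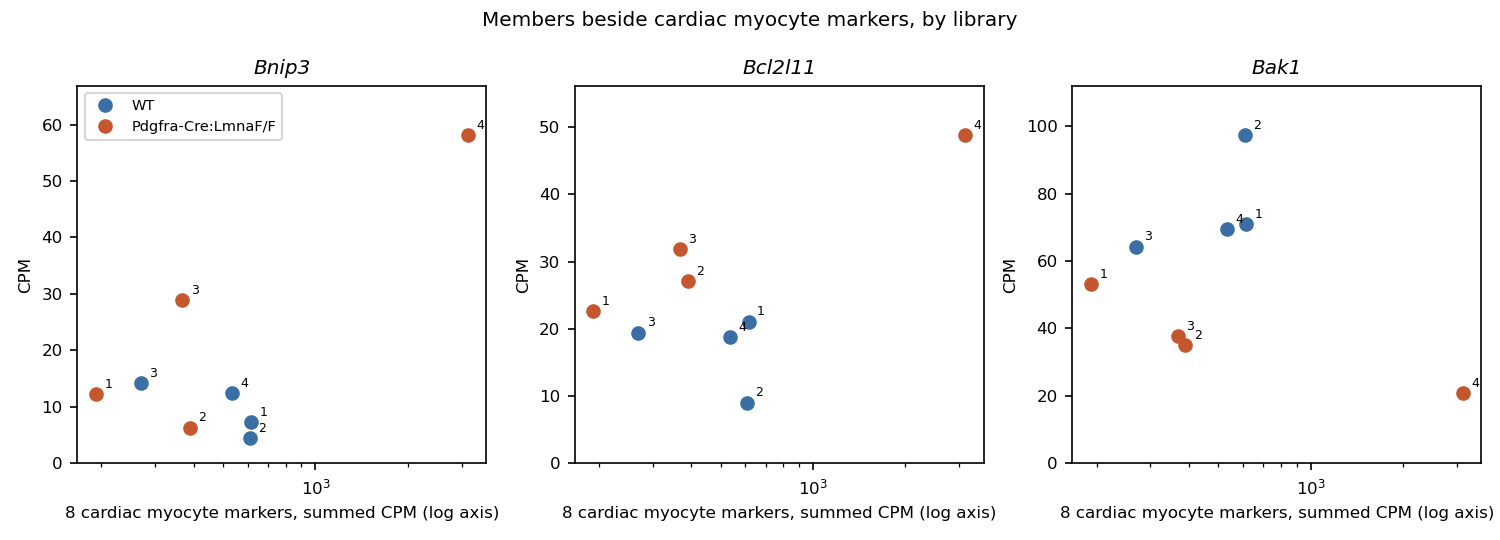
CPM of *Bnip3*, *Bcl2l11* and *Bak1* (linear y axes from 0) against the summed CPM of 8 cardiac myocyte markers (log x axis), 1 point per library with its replicate number. Pdgfra-Cre:LmnaF/F replicate 4, at 3139 CPM of markers, holds the highest *Bnip3* and *Bcl2l11* and the lowest *Bak1*.

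The Y-linked genes split the libraries unevenly, with 3 of 4 WT and 1 of 4 Pdgfra-Cre:LmnaF/F libraries positive. Either class held only 1 library of a genotype, too few for a comparison within it, and the part of sex in these differences was not tested. With a term for Y-linked expression, the log2 fold changes were 0.83 for *Bcl2*, 0.47 for *Mcl1*, 1.02 for *Bcl2l11*, -1.26 for *Bak1* and 1.49 for *Bnip3*, and 0 members passed the adjusted threshold, against 0.859% of all genes. In that fit 6 members had an unadjusted p under 0.05, against 13.4% of all genes. The summed immediate-early genes separated the genotypes, as did *Bcl2*, *Mcl1*, *Bcl2l11* and *Bak1*, and their part in these differences was not tested.

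The genes that work with the members were read from lists covering 110 tested genes. Of the 10 other Bcl2-family genes tested, 5 were higher and 5 lower and 0 passed the test. The BH3-only gene *Bmf* had 43.3, 25.1, 45.1 and 60.5 CPM in the WT and 43.7, 47.9, 73.7 and 182 CPM in the Pdgfra-Cre:LmnaF/F libraries, with replicate 4 again the highest (log2 fold change 0.98, SE 0.40, edgeR adjusted p = 0.354). *Hrk*, a BH3-only gene best known from neurons, had 1, 3, 0 and 8 counts in the WT and 27, 58, 34 and 45 counts in the Pdgfra-Cre:LmnaF/F libraries, with an edgeR adjusted p of 0.401. Downstream of the pore, 0 of 9 caspase and apoptosome genes passed the test, with a median log2 fold change of 0.01. The smallest p values there were those of *Cycs*, which encodes cytochrome c (log2 fold change 0.59, SE 0.33), and *Casp6* (0.84, SE 0.56).

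Among the 7 inhibitors of apoptosis and their antagonists, 6 were higher and 0 passed. *Birc2*, which encodes the ubiquitin ligase cIAP1, had 33.5 to 40.0 CPM in the WT and 43.3 to 92.2 CPM in the Pdgfra-Cre:LmnaF/F libraries, without overlap (log2 fold change 0.77, SE 0.25, edgeR adjusted p = 0.218). *Diablo*, whose product antagonizes these inhibitors, had a log2 fold change of 0.71 with an SE of 0.68. Of the 10 death receptor genes, 5 were higher, 5 lower and 0 past the threshold, with log2 fold changes of -0.44 (SE 0.23) for the TNF receptor *Tnfrsf1b* and 0.71 (SE 0.43) for *Fas*.

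Upstream, 1 of 20 genes of the p53 list passed the test. It was *Btg2*, an antiproliferative p53 target that is also an immediate-early gene, which rose from 307 ± 167 to 1297 ± 405 CPM (log2 fold change 2.08, SE 0.37, edgeR adjusted p = 0.0315). Its adjusted p was 0.0786, 0.0845, 0.0554 and 0.109 without WT replicate 1, WT replicate 4, Pdgfra-Cre:LmnaF/F replicate 2 and Pdgfra-Cre:LmnaF/F replicate 3, respectively, in edgeR. The list had a median of 0.04, with 11 genes higher and 9 lower. At an unadjusted edgeR p under 0.05, 4 of the 20 were higher and 0 lower, against 11.9% of all genes tested in either direction. *Plk2*, the next by p, had a log2 fold change of 0.79 (SE 0.29, edgeR adjusted p = 0.297). None of the 8 FOXO and stress regulators tested passed, and *Trib3* (1.26, SE 0.75) and *Foxo1* (-0.52, SE 0.34) had the smallest p values. Of the 17 hypoxia-inducible genes tested beside *Bnip3*, 0 passed, 11 were higher and 6 lower. The 2 with the smallest p had lower means than in the WT, *Vegfa* with 91.5 to 193 CPM in the WT and 56.6 to 86.3 CPM in the Pdgfra-Cre:LmnaF/F libraries (log2 fold change -0.84, SE 0.24, edgeR adjusted p = 0.166) and the collagen hydroxylase gene *P4ha1* with overlapping ranges of 213 to 395 and 128 to 257 CPM (-0.59, SE 0.25, adjusted p = 0.373). Among 12 mitophagy genes, *Bnip3* included, 0 passed, and *Bcl2l13*, a mitophagy receptor of the Bcl2 family, had 47.8 to 56.0 CPM in the WT and 30.1 to 42.0 CPM in the Pdgfra-Cre:LmnaF/F libraries (log2 fold change -0.47, SE 0.22). *Pink1*, the kinase that marks damaged mitochondria, had a log2 fold change of 0.53 (SE 0.27).

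In the 21 immediate-early and dissociation genes, 20 were higher and 4 passed the test, with a median log2 fold change of 1.37. Besides *Btg2* these were *Gadd45b* (1.74, SE 0.30, edgeR adjusted p = 0.0239), *Ier3* (1.88, SE 0.31, adjusted p = 0.0221) and *Nr4a1* (1.92, SE 0.39, adjusted p = 0.0471). With a library left out, the adjusted p in edgeR reached 0.0701 for *Gadd45b*, 0.0848 for *Ier3* and 0.166 for *Nr4a1*. *Ier3* encodes a stress-induced regulator of survival, and the NR4A1 protein can bind BCL2 at mitochondria. Of 7 apoptosis transcripts that the study assayed in whole hearts, 5 of them members here, *Gadd45b* alone passed in the sorted cells. *Gadd45g* had a log2 fold change of -0.02 (SE 0.83). The members had 1.43 for *Bnip3*, 0.91 for *Bcl2l11*, 0.69 for *Bcl2*, 0.21 for *Bax* and -0.20 for *Bbc3*. By RT-PCR on hearts of older Pdgfra-Cre:LmnaF/F mice, the study found *Bcl2l11*, *Bnip3* and both *Gadd45* genes increased. It found *Bax*, *Bbc3* and *Bcl2* unchanged. Tissue, age and method differ from those of the sorted cells.

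**Figure D5:**
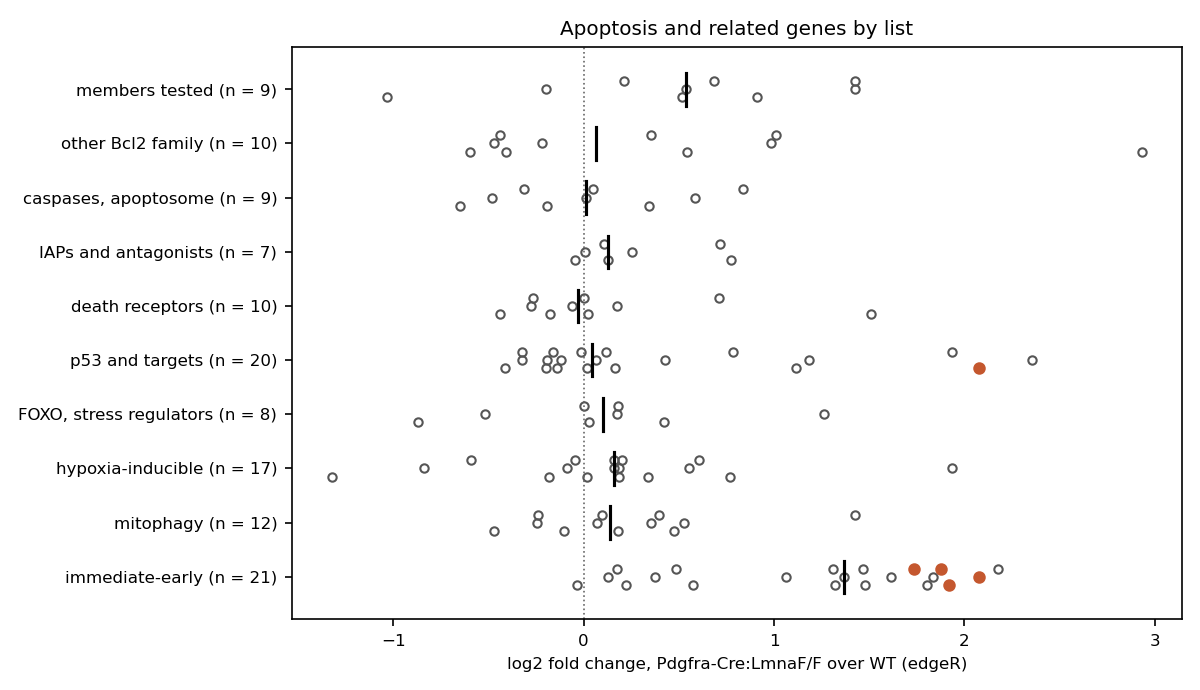
Log2 fold change of Pdgfra-Cre:LmnaF/F over WT (x axis) for each tested gene, by list, with the number of genes tested. Filled points passed an edgeR adjusted p of 0.05, black bars are medians, and the vertical spread within a row only separates points. The 4 genes that passed all belong to the immediate-early list, *Btg2* also to the p53 list, and the 9 members have a median of 0.54 with none past the threshold.

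For the 2 members with the smallest p, the most similar profiles over the 8 libraries were sought among all genes tested, as a description. Among the profiles closest to *Bak1* were those of *Faf2* (Pearson r of log2 CPM 0.985) and *Tpcn1* (0.981), and *Bcl2* was tracked most closely by *Taf1a* (0.960), *Tmem176b* (0.951) and *Cpne7* (0.949). The 8 libraries share the same genotype split, depth and marker differences, and none of these 5 genes had an edgeR adjusted p under 0.05.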

How the data were processed

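The RNA was ribosome-depleted, had a RIN above 8 and was sequenced from strand-specific libraries as paired 150-base reads. The authors aligned them to mm10 with HISAT2 and counted GENCODE genes with featureCounts, and the deposited values are counts, 1 table per library. RUV is named in the study's methods, but the values are whole numbers with unequal totals and were used as raw counts. Versions and the strand setting are not given in the sources used here.

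Members were matched by symbol, and 18918 of 18957 symbols matched GENCODE M21. The 10 members and all lists were chosen with earlier results of these data known. Counts were filtered with filterByExpr, scaled with TMM and compared by genotype in edgeR 4.0.16 (quasi-likelihood F test, R 4.3.3), with Benjamini-Hochberg adjustment over all 13036 genes, a threshold of 0.05 and no covariate. The p-values weigh the genotype difference against the spread between the 4 libraries of each genotype. The named genes were all members, *Lmna*, every list gene past the threshold and the 2 non-members with the smallest p in each list, with the 3 most similar profiles for each of 2 members, of which a gene is not reported here. CPM per kb used the merged exon length from GENCODE, and log2 CPM for profile similarity a prior count of 2. Counts of 3 or fewer were taken as the floor, and intervals are 95%. The scripts were tested on simulated data.

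Alternatives were RLE and upper-quartile factors, DESeq2 1.42.0, limma-voom 3.58.1 with quality weights, no filter, at least 10 counts in every library, 1 RUVr factor, the replicate number as a block, each library left out and, added after seeing the data, a term for Y-linked expression. Within each genotype no pair of libraries was a duplicate, with a chi-square per degree of freedom of 15.7 to 95.9. Promoter windows, from 250 bases before to 50 after each start, were RefSeq's for GRCm38.p6, and 9 of the 10 members had one. Only bases before the annotated gene are printed.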

Additional observations from a re-analysis of the deposited data

Results flagged for a closer look

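Of 94 groups of 4 libraries, 6 held a library whose gap to the nearest other was above Dixon's 95% critical share of the group's range. Chance flags about 1 group in 20. Groups whose lowest value was shared by 3 libraries were counted but not examined. Among the lists tied to the members, *Diablo* was at 0.319 CPM in WT replicate 3 against 11.2 to 12.0 CPM in the other WT libraries, and *Pink1* at 129 CPM in WT replicate 2 against 217 to 231 CPM. Pdgfra-Cre:LmnaF/F replicate 3 was high in *Ier3*, at 86.0 CPM against 47.2 to 51.4 CPM, and in *Nr4a1*, at 1308 CPM against 465 to 587 CPM. Pdgfra-Cre:LmnaF/F replicate 4 was high in the summed cardiac myocyte markers, at 3139 CPM against 192 to 390 CPM, and in the summed leukocyte markers, at 392 CPM against 43.7 to 91.4 CPM. None of the 10 members was among them, but *Pmaip1* in the WT, at 0.559 CPM in replicate 1 and 0 in the others, was not examined.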

How the results depend on the processing

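The log2 fold changes of *Bcl2*, *Mcl1*, *Bak1*, *Bcl2l11*, *Bcl2l1*, *Bax*, *Bid* and *Bnip3* kept their direction in every alternative that gave a value, and *Lmna* stayed past the threshold throughout (log2 fold change -1.94 to -1.56). *Bbc3* ranged from -0.39 to 0.044 with a library left out and changed sign without Pdgfra-Cre:LmnaF/F replicate 1. The number of members past the adjusted threshold was 1 (*Bak1*) with DESeq2 and 1 (*Bak1*) with no filter, at log2 fold changes of -1.04 and -1.05, in fits that called 309 and 274 genes in all against 53 in the reported fit, and 0 in the other settings and with each library left out. *Mcl1* lost its unadjusted p under 0.05 without WT replicate 4, and *Bnip3* without WT replicate 1 or 2 or Pdgfra-Cre:LmnaF/F replicate 3 or 4, and with limma-voom (log2 fold change 0.95). The 4 list genes past the threshold became 13 with DESeq2, 10 with limma-voom, 14 with no filter (*Vegfa*, lower, among them) and 9 with 1 RUVr factor, where limma-voom called 126 and RUVr 81 genes in all, and 0 to 8 with a library left out. *Nr4a1* lost its call with upper-quartile factors, with 1 RUVr factor, with the Y-linked term (where *Ddit4* gained one) and with each library left out except Pdgfra-Cre:LmnaF/F replicate 4. *Btg2* lost its call without WT replicate 1 or 4 or Pdgfra-Cre:LmnaF/F replicate 2 or 3, *Gadd45b* without WT replicate 2 or 4 or Pdgfra-Cre:LmnaF/F replicate 2 or 3, and *Ier3* without WT replicate 1 or 4 or Pdgfra-Cre:LmnaF/F replicate 3. The cause was not tested. At least 10 counts in every library left *Bid* and *Bnip3* untested. Over all genes tested, same-numbered libraries did not deviate together (correlations -0.0298 to 0.0397). The labels do not say what the numbers stand for, and a pairing that affects only some genes was not tested. The replicate block gave 0 members, 7 list genes and 36 genes in all. The values of *Pmaip1* and *Bid* rest on at most 76 counts in a library.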
